A study of Homo sapiens with 2 samples.

Results

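Genes of the Notch pathway were described in MIA PaCa-2, a human cell line long established from a pancreatic carcinoma, with and without a knockdown of TPST2. The set holds 10 genes chosen by symbol from the 58698 genes of the deposited table: the ligand genes JAG1, JAG2 and DLL1, the receptor genes NOTCH1, NOTCH2 and NOTCH3, the DNA-binding effector RBPJ, and the target genes HES1, HEY1 and NRARP. One culture carried a guide against TPST2 (sgTPST2, labelled with the genotype TPST2 KD), which encodes an enzyme that adds sulfate to tyrosines of secreted and membrane proteins in the Golgi. The other carried a guide against GFP (sgGFP, labelled WT), a sequence that human cells lack, and served as the control. Total RNA of each culture was sequenced as 1 library, so the differences have no replicate spread to be read against and no test was made. How the guides acted, and whether the cells were a pool or a clone, is not stated in those labels.

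Notch signalling works between touching cells. A ligand of the Jagged or Delta-like family on one cell binds a Notch receptor on its neighbour, an ADAM protease and then gamma-secretase cut the receptor, and the freed intracellular part joins RBPJ and a Mastermind protein on DNA to switch on repressors of the HES and HEY families. NRARP, another direct target, feeds back on the intracellular part of the receptor. In the pancreas the pathway is known for holding progenitor cells undifferentiated and for being active again in injured and cancerous tissue.

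TPST2 itself, read as a check of the labels, stood at 1.92 FPKM in sgTPST2, against 8.46 FPKM in sgGFP. In the authors' deposited table TPST2 has q = 0.245, above the threshold of q = 0.05 used below. FPKM counts fragments per kb of transcript relative to the depth of the library, so levels can be set side by side between genes as well as between libraries. From the step size of low values, each FPKM equalled about 47.8 fragments over 1 kb in sgTPST2 and 42.0 in sgGFP. Intervals given below are exact Poisson 95% intervals of the estimated fragments and cover counting error only. Differences are log2((sgTPST2 + 1)/(sgGFP + 1)) of the FPKM values, on which changes of genes near 1 FPKM look smaller than they are.

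The labels call the cells pancreatic cancer cells. Of 6 epithelial markers the keratin genes KRT8, KRT18 and KRT19 were above 1 FPKM in both libraries, while KRT7, CDH1 and EPCAM were below it in both. The 6 summed to 140 FPKM in sgTPST2 and 1283 FPKM in sgGFP, nearly all of it from KRT8, KRT18 and KRT19. KRT8 stood at 41.6 FPKM in sgTPST2 and 510 FPKM in sgGFP, KRT18 at 85.3 and 583 FPKM, and KRT19 at 12.8 and 189 FPKM. EPCAM is listed at 0 in both, and CDH1 was at 0.0524 FPKM in sgTPST2 and 0 in sgGFP. KRT7 stood at 0.112 FPKM in sgTPST2 and 0.615 FPKM in sgGFP. The libraries thus differed in KRT8, KRT18 and KRT19 too. The other markers were too low to show whether epithelial genes in general differed. In bulk RNA, fewer cells of a type and less RNA per cell cannot be told apart.

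Of the 10 genes, 8 reached 1 FPKM in at least 1 library, the filter used here, and DLL1 and HEY1 did not. Of these 8, sgTPST2 had 3 that were lower by 1.5-fold or more and 0 that were higher by as much. Over all 13420 genes at the same filter, 6.94% were at least 1.5-fold lower and 4.41% at least 1.5-fold higher. The members were chosen with earlier results of these data known, so these shares do not test whether members differ more often. The 3 lower genes were the ligand JAG1 and the targets HES1 and NRARP. The 3 receptors, the ligand JAG2 and RBPJ all lay within 1.5-fold. The median difference of the 8 genes was -0.14, against -0.00019 for all genes at the filter, but it was -0.018 both over the 6 members at 5 FPKM or more and over all 10 with no filter.

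**Figure D1:**
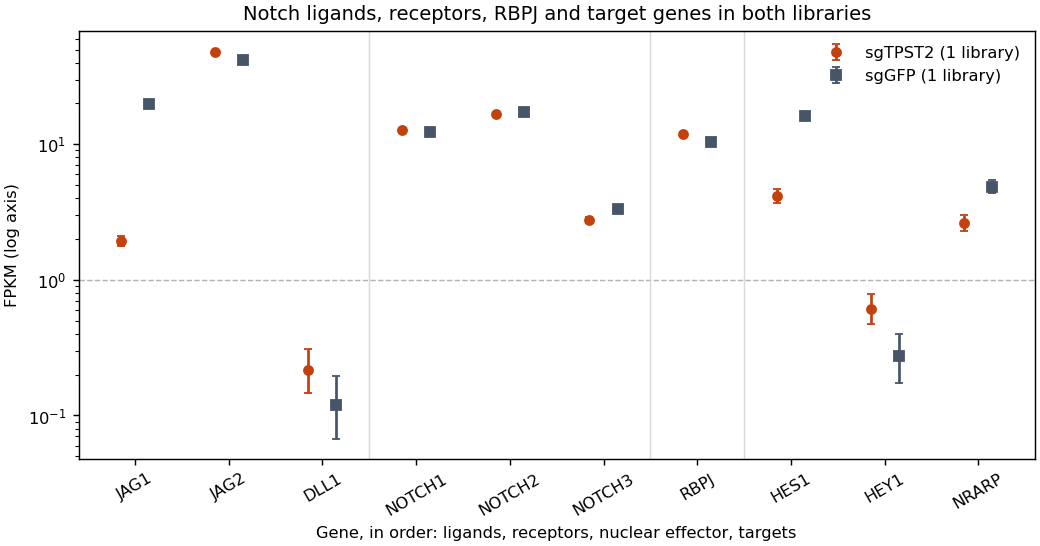
FPKM of the 10 genes (log axis) in sgTPST2 (circles) and sgGFP (squares), 1 library each; bars are exact Poisson 95% intervals of the estimated fragments, and the dashed line marks the filter of 1 FPKM. JAG1, HES1 and NRARP sit lower in sgTPST2, at 1.95, 4.15 and 2.63 FPKM against 19.8, 16.1 and 4.85 FPKM in sgGFP.

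JAG1 was the ligand that differed. This gene (ENSG00000101384.12, chromosome 20, 10637684 to 10673999, minus strand, GRCh38) encodes a membrane-bound ligand of Notch receptors, and its loss of function on one allele causes Alagille syndrome, which affects the bile ducts. It stood at 1.95 FPKM in sgTPST2 (interval 1.79 to 2.12) and at 19.8 FPKM in sgGFP (interval 19.2 to 20.3). These levels stand for about 537 fragments in sgTPST2 and 4786 in sgGFP on its longest transcript of 5940 bases. JAG1 was thus 10.2-fold lower in sgTPST2 by the FPKM ratio, with an exact binomial 95% interval of 9.29 to 11.1 for counting error, and its log2 difference was -2.82. Among 13420 genes at the filter, 60 had a difference as low or lower, JAG1 included, and among 11043 protein-coding genes that the authors tested, 22 did. In the authors' deposited table JAG1 has p = 5e-05 and q = 0.0126. With 1 library per group, the p and q values of that table rest on no spread between replicates. No q there is smaller, but this does not rank JAG1 first, because genes can share a q. At the threshold of q = 0.05 that table calls 0.425% of 18574 genes lower in sgTPST2, and JAG1 is the 1 member among them.

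JAG2 and DLL1, the other ligands of the set, did not share that difference. JAG2, a second Jagged ligand on chromosome 14 (105140981 to 105168824), stood at 48.2 FPKM in sgTPST2 (interval 47.4 to 49.0) and at 41.8 FPKM in sgGFP (interval 41.0 to 42.6). Its log2 difference was 0.20, and it had the highest level of the 10 genes in both libraries. DLL1, a Delta-like ligand on chromosome 6 (170282206 to 170306565), stood at 0.216 FPKM in sgTPST2 and 0.119 FPKM in sgGFP. About 31 fragments in sgTPST2 (interval 0.147 to 0.307 FPKM) and 15 in sgGFP (interval 0.0667 to 0.197 FPKM) lie behind these levels, and the intervals overlap. DLL1 also lies across FAM120B on the opposite strand, which stood at 2.57 FPKM in sgTPST2 and 2.21 FPKM in sgGFP, and the sources used here do not say whether the counting used strand. The remaining canonical ligands were low, with DLL3 at 0.809 FPKM in sgTPST2 and 0.662 FPKM in sgGFP, and DLL4 at 0.0128 FPKM in sgTPST2 and 0.0146 FPKM in sgGFP.

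The mix of ligand RNA therefore differed within each library, a comparison free of the scaling between them. JAG2 was 24.7 times the level of JAG1 in sgTPST2 and 2.11 times in sgGFP. Of the summed FPKM of the 5 canonical ligands, 51.2 FPKM in sgTPST2 and 62.4 FPKM in sgGFP, JAG1 made up 3.81% in sgTPST2 and 31.7% in sgGFP. In the order of levels JAG1 was number 8 of the 10 genes in sgTPST2 and number 2 in sgGFP.

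The receptors were close in the libraries. Each is a single-pass membrane protein whose intracellular part acts as the signal. NOTCH1 (chromosome 9, 136494433 to 136545786) stood at 12.6 FPKM in sgTPST2 and 12.4 FPKM in sgGFP, with a log2 difference of 0.03. NOTCH2 (chromosome 1, 119911553 to 120069626) stood at 16.6 FPKM in sgTPST2 and 17.4 FPKM in sgGFP, with a log2 difference of -0.06. For NOTCH1 the ratio of the levels had a counting interval of 0.982 to 1.06, which holds 1, and for NOTCH2 one of 0.925 to 0.983. NOTCH2 shares sequence with the human NOTCH2NL copies, so its value is uncertain to that extent. NOTCH2NLA stood at 0.642 FPKM in sgTPST2 and 0.569 FPKM in sgGFP.

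NOTCH3 (chromosome 19, 15159038 to 15200981), a receptor best known from vascular smooth muscle, was the lowest of the 3 receptors. It stood at 2.77 FPKM in sgTPST2 (interval 2.61 to 2.93) and 3.35 FPKM in sgGFP (interval 3.17 to 3.55), a log2 difference of -0.21. NOTCH4, a receptor of endothelial cells that is not in the set of 10, stood at 0.0328 FPKM in sgTPST2 and 0.0466 FPKM in sgGFP. Summed over the 4 receptors, the level was 32.04 FPKM in sgTPST2 and 33.2 FPKM in sgGFP.

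RBPJ (chromosome 4, 26163455 to 26435131), the DNA-binding protein through which all canonical Notch signals pass, stood at 11.9 FPKM in sgTPST2 (interval 11.5 to 12.3) and 10.4 FPKM in sgGFP (interval 9.97 to 10.8). Its log2 difference was 0.18. The 4 RBPJ pseudogenes in the table are listed at 0 in both libraries. Where no Notch intracellular part is bound, RBPJ sits with co-repressors, which are described with the rest of the pathway.

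HES1 was the lowest of the target genes relative to the control. It encodes a basic helix-loop-helix repressor that represses its own gene as well as genes of differentiation, and in the pancreas it restrains endocrine fate. HES1 (ENSG00000114315.3, chromosome 3, 194136145 to 194138732, plus strand) stood at 4.15 FPKM in sgTPST2 (interval 3.68 to 4.67) and 16.1 FPKM in sgGFP (interval 15.1 to 17.2). About 278 fragments lie behind the value in sgTPST2 and 948 behind that in sgGFP. The gene was 3.89-fold lower in sgTPST2 by the FPKM ratio (interval 3.40 to 4.46), with a log2 difference of -1.74, and 138 of the 13420 genes had a difference as low or lower. In the authors' deposited table HES1 has p = 0.0015 and q = 0.202, above the threshold.

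NRARP (ENSG00000198435.3, chromosome 9, 137300482 to 137302251, minus strand), which encodes an ankyrin-repeat protein that limits the Notch intracellular domain, was lower by less. It stood at 2.63 FPKM in sgTPST2 (interval 2.28 to 3.02) and 4.85 FPKM in sgGFP (interval 4.34 to 5.41), which is 1.84-fold lower (interval 1.54 to 2.21) and a log2 difference of -0.69. The fragments behind it were about 200 in sgTPST2 and 324 in sgGFP, and the authors' deposited table gives p = 0.157 and q = 0.99965. Of all genes at the filter, 731 had a difference as low or lower. NRARP therefore sits near the edge of the 1.5-fold class and rests on fewer fragments than JAG1 or HES1.

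HEY1 (chromosome 8, 79764010 to 79767863), a HES-related repressor, lay the other way at a low level. It stood at 0.608 FPKM in sgTPST2 (interval 0.470 to 0.785) and 0.275 FPKM in sgGFP (interval 0.173 to 0.402), from about 62 fragments in sgTPST2 and 24 in sgGFP. By the FPKM ratio HEY1 was 2.21 times as high in sgTPST2, with a counting interval of 1.36 to 3.70. The log2 difference was 0.33 with a pseudocount of 1 and 1.11 with one of 0.01, so its size on that scale depends on the pseudocount. The gene missed the filter and is not counted among those that differ. The targets thus did not all lie on the same side of 0.

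How far neighbours in the order of levels were set apart by counting error depended on the transcript taken. With fragments on the longest transcript, 15 of 18 neighbouring pairs over both libraries had intervals apart, and with the shortest protein-coding transcript 9 of 18 did. On the longest transcript NOTCH3 and NRARP overlapped in sgTPST2, as did NOTCH2 and HES1, and HEY1 and DLL1, in sgGFP. JAG2 led in both libraries, followed by NOTCH2, NOTCH1 and RBPJ in sgTPST2 and by JAG1, NOTCH2 and HES1 in sgGFP.

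**Figure D2:**
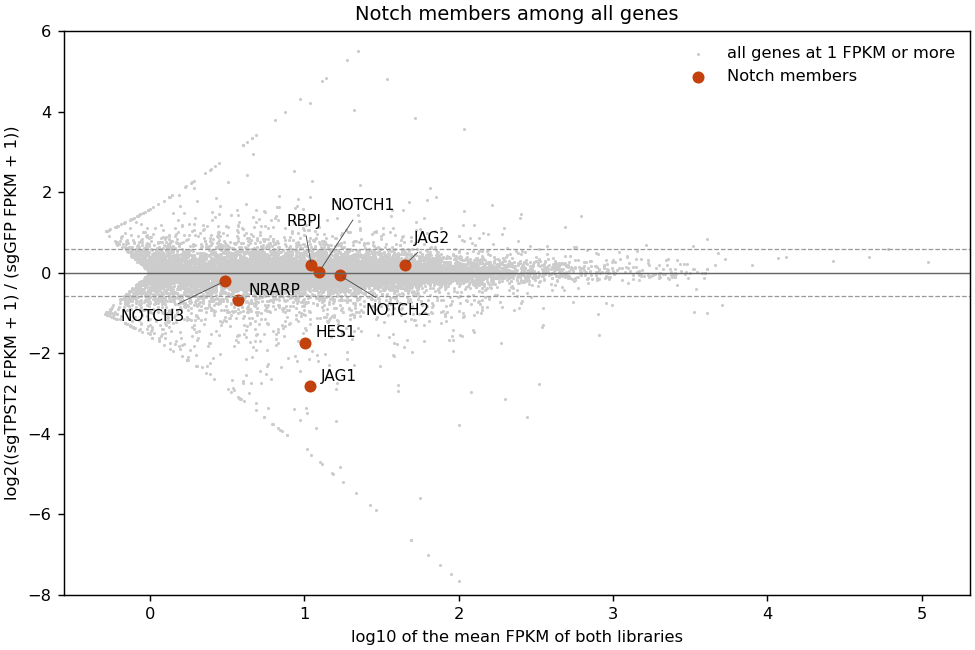
Difference of each gene (log2((sgTPST2 + 1)/(sgGFP + 1)) of FPKM) against the log10 of its mean FPKM, for the 13420 genes at 1 FPKM or more (grey, 17 of them beyond the vertical axis) and the 8 Notch genes among them (orange); dashed lines mark 1.5-fold. JAG1 at -2.82 and HES1 at -1.74 lie below the bulk of genes of their level, NRARP at -0.69 lies just past the lower line, and the other 5 lie between the lines.

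The promoters of the 3 lower genes are shown because RBPJ is known to act at the HES1 promoter. Beside them stands the promoter of RBPJ that holds as many motif matches as that of HES1. Promoters of 8 of the 10 genes were matched by symbol in RefSeq (GRCh38.p14), each 300 bases long, from 250 bases before the gene's start to 50 after it. Capitals mark matches to the core RBPJ motif TGGGAA on either strand. Each sequence runs 5′ to 3′ on the gene's own strand.
HES1 (chr3:194135898-194136197, plus strand): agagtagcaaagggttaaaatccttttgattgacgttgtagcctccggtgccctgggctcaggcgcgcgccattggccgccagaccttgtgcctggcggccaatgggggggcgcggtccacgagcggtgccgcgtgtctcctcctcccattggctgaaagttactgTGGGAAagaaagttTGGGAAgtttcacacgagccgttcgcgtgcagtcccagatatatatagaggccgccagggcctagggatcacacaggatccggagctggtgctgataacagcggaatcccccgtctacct
NRARP (chr9:137302222-137302521, minus strand): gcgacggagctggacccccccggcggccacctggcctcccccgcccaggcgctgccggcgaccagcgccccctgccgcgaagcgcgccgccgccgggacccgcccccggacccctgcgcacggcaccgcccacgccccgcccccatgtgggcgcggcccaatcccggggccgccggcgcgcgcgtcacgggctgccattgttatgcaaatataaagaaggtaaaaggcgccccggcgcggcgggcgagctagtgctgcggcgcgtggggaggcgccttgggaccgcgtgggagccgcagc
JAG1 (chr20:10673950-10674249, minus strand): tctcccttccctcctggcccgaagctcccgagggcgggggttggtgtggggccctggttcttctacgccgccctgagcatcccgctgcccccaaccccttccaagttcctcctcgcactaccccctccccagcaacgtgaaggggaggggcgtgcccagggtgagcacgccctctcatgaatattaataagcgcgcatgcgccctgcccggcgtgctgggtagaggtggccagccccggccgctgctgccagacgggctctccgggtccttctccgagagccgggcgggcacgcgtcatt
RBPJ (chr4:26319496-26319795, plus strand): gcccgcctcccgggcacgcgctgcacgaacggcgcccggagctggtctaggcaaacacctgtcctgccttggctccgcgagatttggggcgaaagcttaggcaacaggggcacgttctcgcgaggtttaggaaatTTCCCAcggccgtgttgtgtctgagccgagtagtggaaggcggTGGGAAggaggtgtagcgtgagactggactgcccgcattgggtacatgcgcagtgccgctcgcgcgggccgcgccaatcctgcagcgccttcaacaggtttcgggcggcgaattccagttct

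HES1 held 2 matches on the gene's own strand, which begin 84 and 70 bases before the start and are 14 bases apart. Of 35116 RefSeq promoters of this length, 24.03% held at least 1 match on either strand and 3.80% at least 2. NRARP and JAG1 held 0 matches. Among the other genes matched, JAG2, NOTCH1, NOTCH2 and NOTCH3 held 0, and of 5 listed RBPJ promoters the one printed held 2, on opposite strands. The N-box CACNAG, a motif that HES repressors can bind, had 4 matches in the HES1 promoter on either strand, and 0.293% of all promoters had 4 or more. The N-box matches nearest the RBPJ matches begin 58 bases before the start and overlap neither of them. A match describes letters in this window and is not a measured site.

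The surroundings of the 3 lower genes were read because these libraries differ over stretches of chromosomes. For JAG1 the 5 protein-coding genes within 1 Mb at the filter had a median log2 difference of -0.20. The nearest, SLX4IP, ends 0.855 kb from JAG1 and stood at 2.11 FPKM in sgTPST2 and 2.56 FPKM in sgGFP. On the other side BTBD3, beyond 1 Mb, stood at 9.37 FPKM in sgTPST2 and 11.1 FPKM in sgGFP. SNAP25, a gene of vesicle fusion named after its values were seen, was the 1 gene in that window at least 1.5-fold lower, at 0.174 FPKM in sgTPST2 and 2.79 FPKM in sgGFP. PLCB1, also named after its values were seen, lies 1669 kb from JAG1 and went the opposite way, at 67.5 FPKM in sgTPST2 and 1.43 FPKM in sgGFP. The genes annotated across JAG1, the antisense RNA AL050403.2 and MIR6870, are listed at 0 in both libraries.

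HES1 lay opposite in sign to the median of its neighbours. The 7 protein-coding genes within 1 Mb had a median of 0.21 and the 43 within 5 Mb one of 0.30. The nearest on each side were OPA1, at 139 FPKM in sgTPST2 and 131 FPKM in sgGFP, and ATP13A3, at 80.5 FPKM in sgTPST2 and 106 FPKM in sgGFP. Of the 7, 0 were at least 1.5-fold lower and 1 at least 1.5-fold higher, against 6.94% and 4.41% of all genes at the filter. Of the 43 within 5 Mb, 1 was lower and 3 were higher by as much. No annotated gene overlaps HES1.

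NRARP lay among 45 genes within 1 Mb with a median of 0.01, of which 3 were at least 1.5-fold lower. Its nearest neighbours were TOR4A, at 7.51 FPKM in sgTPST2 and 11.5 FPKM in sgGFP, and EXD3, at 3.59 FPKM in sgTPST2 and 4.42 FPKM in sgGFP. The lowest of the 45, EHMT1, a histone methyltransferase gene named after its values were seen, stood at 26.4 FPKM in sgTPST2 and 214 FPKM in sgGFP, with q = 0.99965 in the authors' deposited table. NOTCH1 lies on the same stretch of chromosome 9, and its own log2 difference was 0.03. Around the other 7 genes, medians within 1 Mb ranged from -0.45, for 3 genes around HEY1, to 0.13, for 4 genes around NOTCH2.

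**Figure D3:**
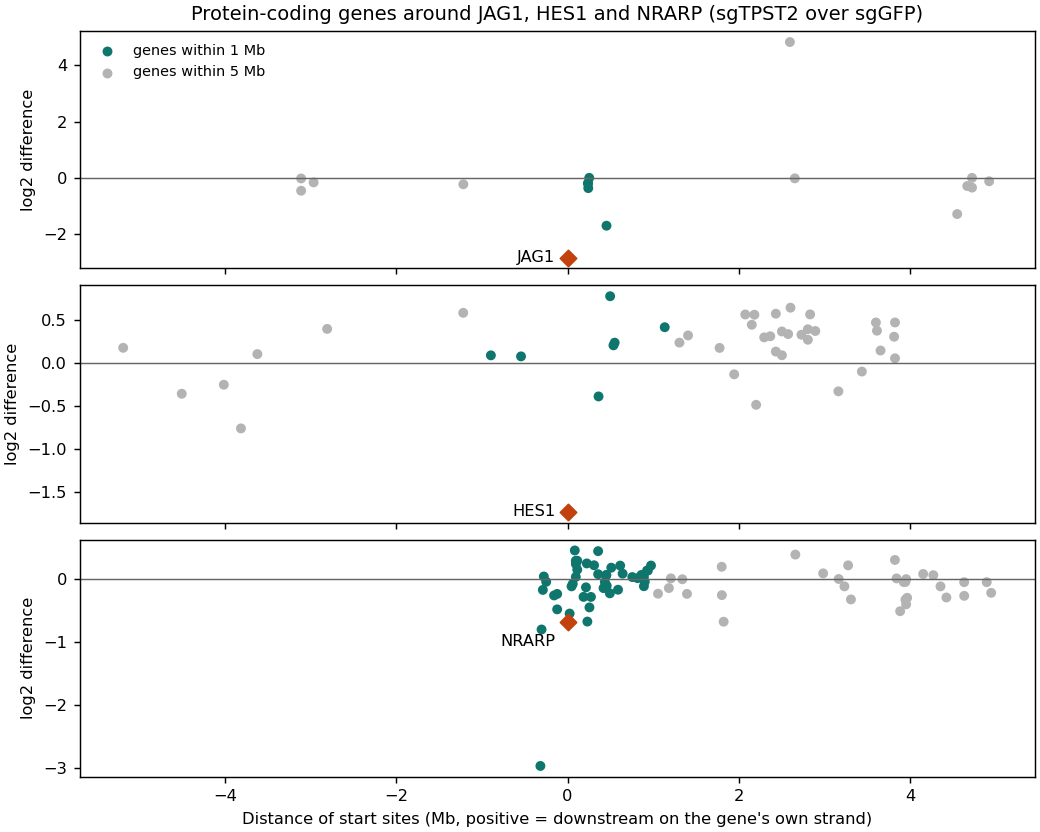
Log2 difference (sgTPST2 over sgGFP) of protein-coding genes at 1 FPKM or more around JAG1, HES1 and NRARP (diamonds), by the distance of their start sites in Mb; green points lie within 1 Mb of the gene and grey points within 5 Mb. HES1 at -1.74 lies under neighbours whose median within 1 Mb is 0.21, JAG1 at -2.82 under 5 neighbours with a median of -0.20, and NRARP at -0.69 among 45 neighbours with a median of 0.01.

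Beyond the 10 genes, the rest of the pathway differed about as often as genes at large. Over 10 lists by role, 77 further genes were examined and 57 reached 1 FPKM, of which 52 (91.2%) lay within 1.5-fold, against 88.7% of all genes at the filter. Of these 57, 3 were at least 1.5-fold lower (5.26%) and 2 at least 1.5-fold higher (3.51%), against the 6.94% and 4.41% of all genes given above, and their median was -0.05. The 3 lower genes were HES4, KDM5A and DNER, and the 2 higher ones TLE1 and DTX3L. At the threshold of q = 0.05 the authors' deposited table calls 0 of the 77, and the smallest q among them is 0.151, for DNER.

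Among genes listed as transcriptional targets, which are HES and HEY family genes and NRARP, 5 of the 10 reached the filter. Whether each is a Notch target in these cells was not tested. The list was chosen with earlier results of these data known. Of these 5, 3 were at least 1.5-fold lower and 0 higher, against 6.94% and 4.41% of all genes at the filter. The median of the 5 was -0.69, but over all 10 with no filter it was -0.066. HES1 and NRARP are 2 of the 3 lower genes. HES4, a HES repressor that humans have and mice lack, was the third, at 0.815 FPKM in sgTPST2 and 2.09 FPKM in sgGFP. HES4 thus reached the filter in sgGFP only, and the filter left out HEY1, which lay the other way. HES6, which can oppose HES1, stood at 6.47 FPKM in sgTPST2 and 8.36 FPKM in sgGFP. HES2 lay slightly the other way, at 1.94 FPKM in sgTPST2 and 1.43 FPKM in sgGFP. The level of HES1 was 0.642 times that of HES6 in sgTPST2 and 1.93 times in sgGFP. HES7, the repressor of the segmentation clock, stood at 0.211 FPKM in sgTPST2 and 0.292 FPKM in sgGFP, HEYL was at 0.0272 FPKM in sgGFP and is listed at 0 in sgTPST2, and HES5 and HEY2 are listed at 0 in both.

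Genes that make ligands competent to signal were close. Of 7 genes of ligand ubiquitylation and endocytosis, 6 reached the filter, all within 1.5-fold, with a median of 0.05. Among ligand ubiquitin ligases, NEURL1B stood at 13.1 FPKM in sgTPST2 and 11.0 FPKM in sgGFP, MIB2 at 20.5 FPKM in sgTPST2 and 19.2 FPKM in sgGFP, and MIB1 at 23.4 FPKM in sgTPST2 and 23.2 FPKM in sgGFP. The epsins EPN1 and EPN2, adaptors of ligand uptake, did not share a sign, with EPN1 at 15.6 FPKM in sgTPST2 and 12.7 FPKM in sgGFP, and EPN2 at 13.0 FPKM in sgTPST2 and 13.5 FPKM in sgGFP.

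Glycosyltransferases of the receptor lay on both sides of 0, all within 1.5-fold among those at the filter. Of 9 genes, 7 reached it, 5 with a difference above 0 and 2 below, and their median was 0.20. EOGT, which adds N-acetylglucosamine to receptor repeats, stood at 22.4 FPKM in sgTPST2 and 16.4 FPKM in sgGFP. XXYLT1, a xylosyltransferase that lies within 1 Mb of HES1, stood at 15.4 FPKM in sgTPST2 and 11.2 FPKM in sgGFP. The Fringe gene LFNG, which shifts receptors towards Delta-like ligands, stood at 3.24 FPKM in sgTPST2 and 2.35 FPKM in sgGFP, and GXYLT1 at 4.19 FPKM in sgTPST2 and 3.53 FPKM in sgGFP. The fucosyltransferase gene POFUT1 and the glucosyltransferase gene POGLUT1 lay below 0, at -0.06 and -0.13 on the log2 scale. Under the filter, MFNG stood at 0.226 FPKM in sgTPST2 and 0.780 FPKM in sgGFP, and GXYLT2 at 0.501 FPKM in sgTPST2 and 0.901 FPKM in sgGFP.

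All 9 genes of receptor cleavage reached the filter, and all 9 lay within 1.5-fold, with a median of -0.08. The subunits of gamma-secretase did not lean one way. PSENEN stood at 53.0 FPKM in sgTPST2 and 35.0 FPKM in sgGFP, at the edge of the 1.5-fold class with a log2 difference of 0.58. PSEN2 stood at 10.7 FPKM in sgTPST2 and 15.4 FPKM in sgGFP, and APH1A at 116 FPKM in sgTPST2 and 93.4 FPKM in sgGFP. ADAM10, the protease of the first cut after ligand binding, stood at 112 FPKM in sgTPST2 and 137 FPKM in sgGFP.

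Of 12 genes of receptor trafficking and turnover, 10 reached the filter, with 0 at least 1.5-fold lower, 1 higher and a median of -0.11. DTX3L, a Deltex-family ubiquitin ligase also known as an interferon-induced gene, was the higher one, at 16.6 FPKM in sgTPST2 and 9.77 FPKM in sgGFP. DTX3L overlaps PARP9, on the opposite strand, only between their start sites, which lie 0.339 kb apart. PARP9 stood at 7.44 FPKM in sgTPST2 and 5.60 FPKM in sgGFP. DTX3 stood at 15.0 FPKM in sgTPST2 and 10.6 FPKM in sgGFP. FBXW7, the ubiquitin ligase subunit that marks the Notch intracellular domain for degradation, stood at 12.5 FPKM in sgTPST2 and 16.2 FPKM in sgGFP, and DTX2 at 2.26 FPKM in sgTPST2 and 2.78 FPKM in sgGFP.

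In the nucleus, 9 of 11 effectors and co-activators reached the filter, all 9 within 1.5-fold, with a median of -0.05. Acetyltransferase genes among them were KAT2A, at 20.6 FPKM in sgTPST2 and 21.1 FPKM in sgGFP, EP300, at 5.49 FPKM in sgTPST2 and 7.11 FPKM in sgGFP, KAT2B, at 3.71 FPKM in sgTPST2 and 3.11 FPKM in sgGFP, and CREBBP, at 4.55 FPKM in sgTPST2 and 3.85 FPKM in sgGFP. Among 13 co-repressors 11 reached the filter, with 1 at least 1.5-fold lower, 1 higher and a median of -0.13. TLE1, a Groucho-family co-repressor that HES proteins recruit, was the higher one, at 24.1 FPKM in sgTPST2 and 8.75 FPKM in sgGFP, with q = 0.513 in the authors' deposited table. Its relative TLE2 stood at 20.005 FPKM in sgTPST2 and 29.5 FPKM in sgGFP, and NCOR1 at 36.8 FPKM in sgTPST2 and 47.1 FPKM in sgGFP. KDM5A, a histone demethylase that RBPJ can recruit, stood at 13.3 FPKM in sgTPST2 and 28.5 FPKM in sgGFP. KDM5A lies on the short arm of chromosome 12, where 5 of the 6 genes within 1 Mb were also at least 1.5-fold lower and their median was -0.92.

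Of 7 non-canonical ligands, 3 reached the filter, with 1 at least 1.5-fold lower, 0 higher and a median of -0.05. DNER, a membrane protein with Delta-like repeats known from neurons, stood at 30.5 FPKM in sgTPST2 and 68.3 FPKM in sgGFP, a log2 difference of -1.14. The 7 genes within 1 Mb of DNER had a median of -0.03, and 2 of them were at least 1.5-fold lower. EGFL7, a secreted protein of the NOTCH1 neighbourhood, stood at 42.7 FPKM in sgTPST2 and 40.3 FPKM in sgGFP, and DLK2 at 3.72 FPKM in sgTPST2 and 3.90 FPKM in sgGFP.

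**Figure D4:**
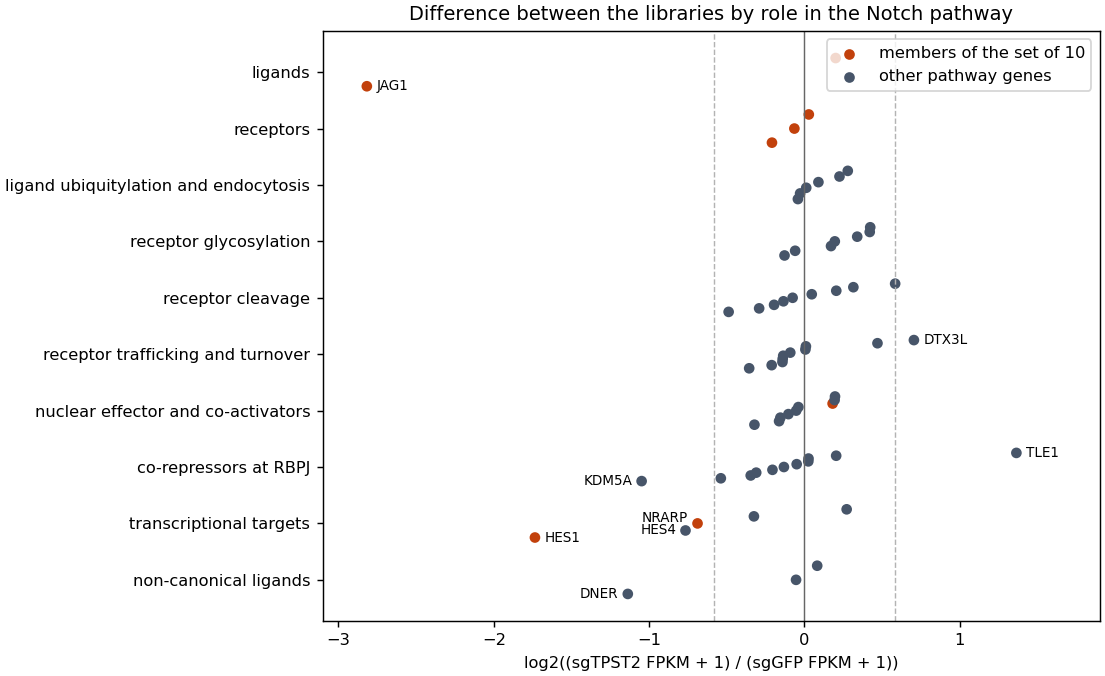
Log2 difference (sgTPST2 over sgGFP, of FPKM + 1) of each pathway gene at 1 FPKM or more, by role, with the members of the set of 10 in orange and other genes in grey; dashed lines mark 1.5-fold and genes beyond them are named. JAG1 at -2.82 and HES1 at -1.74 lie farthest to the left, TLE1 at 1.36 lies farthest to the right, and the receptor, ligand-uptake, glycosylation, cleavage and co-activator genes lie between the lines.

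Endothelial cells are another main site of JAG1, NOTCH4 and HEY genes, and fibroblasts of JAG1 and NOTCH3, so markers of both were read beside these results. Of 6 endothelial markers 0 reached 1 FPKM in sgTPST2 and 2 did in sgGFP, and the 6 summed to 0.418 FPKM in sgTPST2 and 12.7 FPKM in sgGFP. EMCN stood at 0.136 FPKM in sgTPST2 and 9.64 FPKM in sgGFP, CDH5 at 0.277 FPKM in sgTPST2 and 2.93 FPKM in sgGFP, and VWF at 0.00482 FPKM in sgTPST2 and 0.176 FPKM in sgGFP, while PECAM1, KDR and TEK are listed at 0 in both. Of 5 fibroblast markers only COL1A2 reached 1 FPKM, at 3.47 FPKM in sgTPST2 and 29.05 FPKM in sgGFP. COL1A1 lay the other way at a low level, at 0.216 FPKM in sgTPST2 and 0.0450 FPKM in sgGFP. DCN and LUM are listed at 0 in both, and PDGFRB is near 0 in sgTPST2 and listed at 0 in sgGFP. Of 4 leukocyte markers 2 reached 1 FPKM in each library, CD68, at 1.51 FPKM in sgTPST2 and 3.32 FPKM in sgGFP, and CD14, at 1.76 FPKM in sgTPST2 and 2.67 FPKM in sgGFP. The 4 summed to 3.28 FPKM in sgTPST2 and 6.09 FPKM in sgGFP, with CD3E listed at 0 in both and PTPRC at 0 in sgTPST2 and 0.102 FPKM in sgGFP. The part of the moving markers, the keratin genes included, in the differences of JAG1 and HES1 was not tested.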

How the data were processed

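RNA of 2 MIA PaCa-2 cultures was compared, 1 library each. Per the labels' protocols, the library kit was a stranded one for total RNA. Per the submitters' processing notes, STAR, Cuffdiff and the build hg38 were used; their versions and the strand setting are not stated there. The deposited table gives 1 value per gene and library with no unit in its header, and these values were read as FPKM, the unit Cuffdiff reports. The p-value, q-value and log2 fold change are the authors' deposited ones, and that log2 fold change equals log2((sgTPST2 + 1)/(sgGFP + 1)). All 58698 gene identifiers and symbols matched GENCODE release 29 (GRCh38), the source of coordinates and transcript lengths.

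The filter kept genes that reached 1 FPKM in either library, and a pseudocount of 1 was added. Values multiplied by transcript length, less 180 bp, in genes with 1 transcript longer than 1500 bp fell on multiples of 0.0209 FPKM times kb per fragment in sgTPST2 and 0.0238 in sgGFP; 93.5% of 772 and 93.0% of 759 low values were whole fragments to within 0.1, on which step and offset were also fitted. Fragments were computed on each gene's longest transcript. The steps were tested on simulated data. With 1 library per group no test was made. The members and lists were chosen with earlier results of these data known. Named genes are the members, TPST2, all ligands, receptors and targets, up to 4 genes per list with the largest absolute difference, and the nearest neighbours of the members at least 1.5-fold apart. Named beyond this rule were MIB1, POFUT1, POGLUT1 and KAT2A from the lists, and MFNG and GXYLT2 under the filter. Cell type markers, overlapping genes, NOTCH2NLA, SNAP25, PLCB1 and EHMT1 were named as well. Alternatives were other pseudocounts, filters, scalings, folds, windows and transcript lengths. Computations used Python 3.11.15, pandas 2.3.3 and scipy 1.17.1.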

Additional observations from a re-analysis of the deposited data

How the results depend on the processing

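No paired analysis was possible because there is only 1 library per group, which also means that none can be left out. The count of 3 members at least 1.5-fold lower held with pseudocounts of 0.1 and 0.01, every rescaling and no filter, and was 2 with a filter of 5 FPKM or a fold of 2, which leave out NRARP. The members' median was -0.018 over the 6 left by a filter of 5 FPKM and -0.018 over all 10 with no filter, and that of the targets was -0.066 with no filter, which adds genes near 0. With no filter 1.80% of all genes were lower and 1.21% higher, and with a fold of 2 2.93% and 1.61%. With a pseudocount of 0.1 the shares were 9.14% lower and 6.92% higher, and with 0.01 they were 9.49% and 7.30%. With a filter of 5 FPKM 5.51% were lower and 3.43% higher. Of the other pathway genes 1 was 2-fold higher; PSENEN, just inside 1.5-fold, passed it with the same sum, the same upper quartile and both smaller pseudocounts, giving 3 higher. On the shortest protein-coding transcript JAG1 rests on 39 fragments in sgTPST2 and 347 in sgGFP, so counting intervals depend on the isoform.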
